A study of Mus musculus with 15 samples.

Results

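Scavenger receptors are surface and lysosomal proteins with which macrophages bind and take up modified lipoproteins, microbes and dying cells. The 8 genes described here are *Marco*, *Msr1*, *Colec12* and *Scara3* of the class A receptors, *Scarb1* and *Scarb2* of class B, *Cd68* of class D and *Olr1* of class E. They were chosen as a list of genes and found by symbol, and all 8 were present among the 51763 genes of the count table. *Marco* and *Olr1* were also chosen by their measured levels in these libraries, as genes highest after dsHMGB1 and after LPS/IFNγ, so their levels are described and carry no test. The other 6 were tested.

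RNA was sequenced from bone marrow-derived macrophages (BMDMs) of wild-type female C57BL/6NTac mice aged 8 to 10 weeks, grown with the growth factor M-CSF and kept in medium with 1% serum for a stimulation of 24 h. There were 5 conditions with 3 libraries each. The control received PBS. Fully reduced HMGB1 (frHMGB1) and disulfide HMGB1 (dsHMGB1), redox forms of a nuclear protein that acts as a danger signal outside the cell, were each given at 5 µg/mL as recombinant protein carrying a calmodulin-binding tag. frHMGB1 was made in buffers with the reducing agent DTT. dsHMGB1 came from another laboratory and was made without DTT. In dsHMGB1 against frHMGB1 the redox form and the preparation therefore cannot be told apart. The purified proteins were kept in PBS with or without DTT, and no DTT is named for the PBS control. In frHMGB1 against PBS the protein and its buffer thus cannot be told apart. Lipopolysaccharide (LPS-EK), a bacterial ligand of TLR4, was given at 1 µg/mL, and the last condition combined LPS with 20 ng/mL of IFNγ (LPS/IFNγ). For LPS/IFNγ the treatment field of the labels gives 1 µg/mL of LPS and the protocol text gives 100 ng/mL, so in LPS/IFNγ against LPS the addition of IFNγ and the dose of LPS cannot be told apart. Macrophages of 5 mice were pooled before seeding, so errors and adjusted p-values cover the spread between cultures and libraries of 1 pool and not the spread between mice.

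Class A receptors are trimers with a collagen-like stalk that bind polyanionic ligands, such as acetylated or oxidized LDL and bacterial cell walls, and they are known from tissue macrophages and from the foam cells of atherosclerotic plaques. SR-BI, the product of *Scarb1*, moves cholesteryl esters between HDL and the cell, and LOX-1, the product of *Olr1*, is a C-type lectin-like receptor for oxidized LDL. LIMP-2 and macrosialin, the products of *Scarb2* and *Cd68*, sit mainly in the membranes of lysosomes and late endosomes.

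Libraries held 40934540 to 80925478 counted reads. All 7 macrophage markers of a list (*Adgre1*, *Csf1r*, *Cd14*, *Itgam*, *Fcgr1*, *Mertk* and *Lyz2*) were present, with summed levels of 12400 to 25400 CPM (counts scaled to the same total in every library), against at most 5.47 CPM for neutrophil, 14.2 CPM for dendritic cell, 0.152 CPM for lymphocyte and 0.351 CPM for erythroid markers. Fibroblast markers summed to 120 to 284 CPM and endothelial markers to 11.6 to 104 CPM. The third PBS library stood apart: its Pearson correlation with the other PBS libraries over genes was 0.934 to 0.939, against 0.987 to 0.993 for all other pairs of replicates. Its difference from the other PBS libraries followed transcript length, from a median of 0.67 (log2 CPM) in the class of genes with the shortest exons to -0.84 in that with the longest, of 4 equal classes. For the receptors this difference was -1.76 for *Olr1*, -1.75 for *Scara3*, -1.12 for *Colec12*, -0.59 for *Scarb1* and -0.43 for *Cd68*, and it lay between -0.18 and 0.14 for *Msr1*, *Scarb2* and *Marco*. For the 8 receptors, the differences from PBS that this library moved most are given also without it.

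In GRCm38, *Marco* (ENSMUSG00000026390) lies at chr1:120474538-120505024, *Msr1* (ENSMUSG00000025044) at chr8:39581685-39642673 and *Olr1* (ENSMUSG00000030162) at chr6:129485244-129507165. *Scarb1* (ENSMUSG00000037936) lies at chr5:125277087-125341094, *Scarb2* (ENSMUSG00000029426) at chr5:92441314-92506833, *Scara3* (ENSMUSG00000034463) at chr14:65919394-65953935 and *Cd68* (ENSMUSG00000018774) at chr11:69664213-69666153. All 8 are protein-coding, and their exons overlapped those of no other gene in GENCODE M21. The exons cover 1257 bases in *Cd68* to 8725 bases in *Colec12*.

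A promoter sequence of 300 bases, 250 before and 50 after the annotated start, was given by RefSeq (GRCm38.p6) for *Marco*, *Olr1*, *Cd68* and *Scarb2*, 4 of the 8 genes. Those of *Marco* and *Olr1*, the receptors that varied most across conditions, are shown beside that of *Cd68*, which varied least. All 3 genes lie on the minus strand, and each sequence is written 5′ to 3′ along the gene: *Marco* from chr1:120504975-120505274, *Olr1* from chr6:129507116-129507415 and *Cd68* from chr11:69666121-69666420. Capitals mark every match, on either strand, to 1 of 9 motifs searched.
Marco: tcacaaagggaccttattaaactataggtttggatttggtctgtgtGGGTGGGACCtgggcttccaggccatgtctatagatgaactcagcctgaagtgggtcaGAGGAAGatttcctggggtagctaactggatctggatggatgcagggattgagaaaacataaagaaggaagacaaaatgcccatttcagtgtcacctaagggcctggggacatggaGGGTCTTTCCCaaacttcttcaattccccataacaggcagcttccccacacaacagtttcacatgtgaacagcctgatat
Olr1: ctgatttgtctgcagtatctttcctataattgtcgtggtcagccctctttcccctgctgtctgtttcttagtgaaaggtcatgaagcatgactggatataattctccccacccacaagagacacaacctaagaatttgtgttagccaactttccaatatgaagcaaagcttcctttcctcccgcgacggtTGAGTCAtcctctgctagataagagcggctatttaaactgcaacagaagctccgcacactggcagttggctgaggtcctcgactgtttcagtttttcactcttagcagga
Cd68: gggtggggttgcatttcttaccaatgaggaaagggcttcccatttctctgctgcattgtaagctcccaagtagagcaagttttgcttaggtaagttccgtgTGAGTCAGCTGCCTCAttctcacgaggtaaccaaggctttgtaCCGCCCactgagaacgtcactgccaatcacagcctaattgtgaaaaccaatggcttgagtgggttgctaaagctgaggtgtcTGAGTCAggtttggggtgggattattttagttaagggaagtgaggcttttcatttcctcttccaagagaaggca
The *Marco* promoter held 3 matches to an NF-κB motif (GGGNNNNNCC), beginning at -204, -30 and -29 from the start, of which the last 2 overlap on opposite strands, and 1 match to a PU.1 motif (GAGGAAG) at -146. The *Olr1* promoter held 1 match, to an AP-1 motif (TGANTCA) at -60. The *Cd68* promoter held AP-1 matches at -149 and -24, a GC box (GGGCGG) at -106 and 2 matches to an NRF2 motif (TGANNNNGC) at -149 and -142, the first of which covers the AP-1 match. Of all 32851 promoters in the table, 50.8% held the NF-κB motif, 13.6% the PU.1 motif, 7.81% the AP-1 motif, 35.7% the GC box and 41.3% the NRF2 motif. None of these 3 sequences, nor that of *Scarb2*, held the letters of a GAS element (TTCNNNGAA, 8.3% of promoters), an ISRE (GAAANNGAAA, 3.44%), a CLEAR E-box (CACGTG, 7.15%) or a TATA box (TATAAA, 13.6%). GC bases made up 47.3% of the *Marco* sequence, 46% of that of *Olr1*, 47.7% of that of *Cd68* and 67.3% of that of *Scarb2*. These matches are descriptions of letters and not of bound sites.

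*Marco*, which encodes a class A receptor for bacteria and particles, was highest after dsHMGB1. Its normalized counts (reads divided by the DESeq2 size factor of the library) were 24.6, 26.5 and 30.5 in the PBS libraries and 117, 52.1 and 28.0 after frHMGB1. They were 3260, 3447 and 3487 after dsHMGB1, 493, 415 and 375 after LPS, and 229, 234 and 228 after LPS/IFNγ. The dsHMGB1 libraries stood above all others, the LPS libraries above those of LPS/IFNγ, and both above frHMGB1 and PBS, whose ranges overlapped. The 3 frHMGB1 libraries were spread 4.16-fold, from 109 reads in the first to 26 in the third, so the mean of that condition rests largely on its first library.

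Against PBS, *Marco* was 126-fold higher after dsHMGB1 (log2 fold change 6.98, SE 0.35), 15.9-fold higher after LPS (3.99, SE 0.35) and 8.53-fold higher after LPS/IFNγ (3.09, SE 0.35). After frHMGB1 the log2 fold change was 1.28 (SE 0.36). Between stimulations, dsHMGB1 exceeded LPS 7.94-fold (2.99, SE 0.32), LPS/IFNγ 14.8-fold (3.88, SE 0.32) and frHMGB1 51.8-fold (5.70, SE 0.33), while LPS/IFNγ lay 1.86-fold below LPS (-0.89, SE 0.32). Of the 8 genes, *Marco* was the only 1 whose level in dsHMGB1 lay more than 2 on the log2 scale above that in LPS and in LPS/IFNγ, which is the peak it was chosen for. Without the first frHMGB1 library the log2 fold change of *Marco* was 0.60 for frHMGB1 against PBS and 6.39 for dsHMGB1 against frHMGB1, and leaving out any 1 library gave 0.60 to 1.65 and 5.33 to 6.39. With the third PBS library left out, the log2 fold change over PBS after dsHMGB1 was 7.05, and with counts scaled to library totals in place of size factors it was 6.62. In a bulk sample, a lower share of cells that express a gene and less RNA of it in each cell cannot be told apart.

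**Figure D1:**
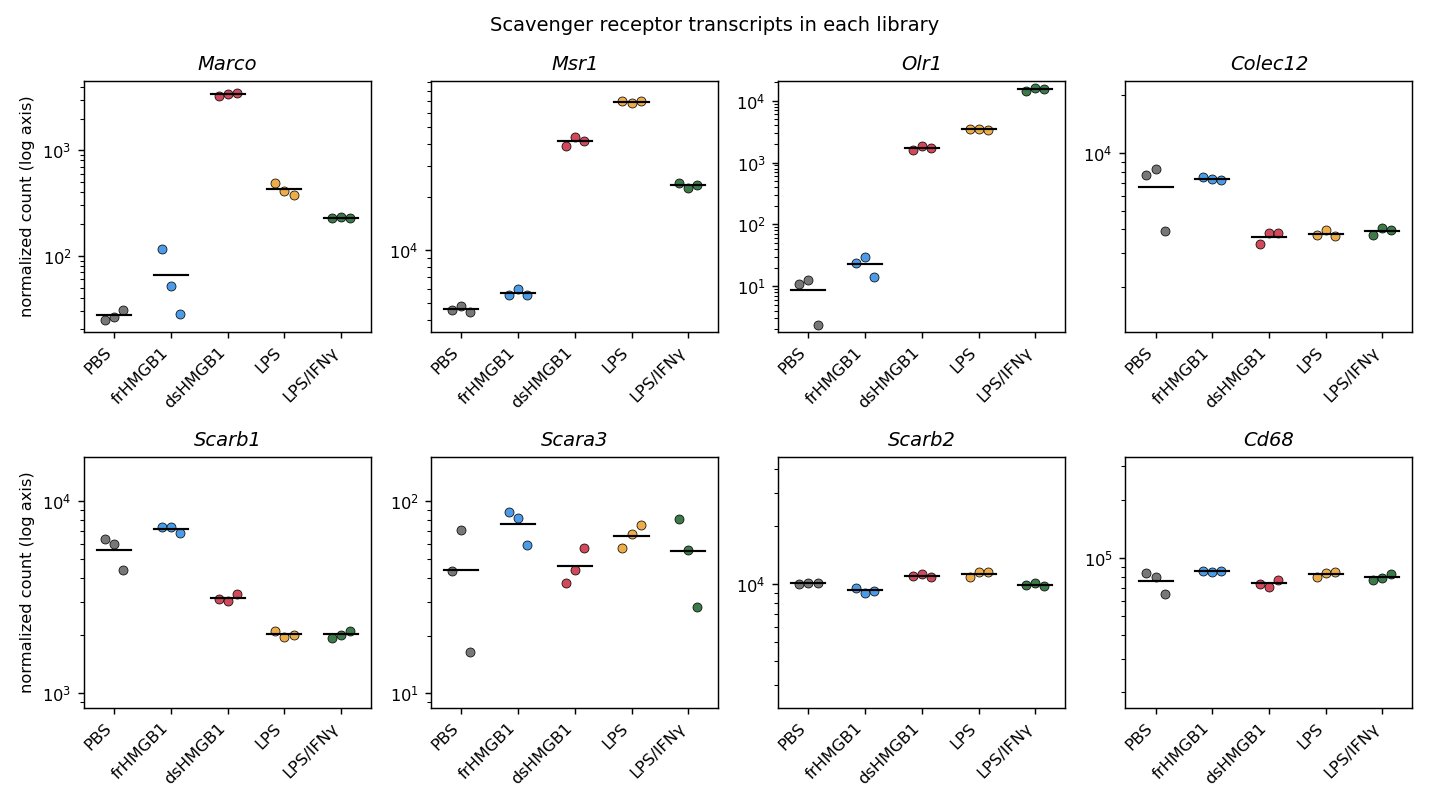
Normalized counts of the 8 scavenger receptor genes in each of the 15 libraries, on log axes whose range differs between panels, with 1 panel per gene, 1 point per library and a bar at the mean of the 3 libraries of a condition. *Marco* peaks in dsHMGB1, *Olr1* in LPS/IFNγ and *Msr1* in LPS, *Colec12* and *Scarb1* are lower in the dsHMGB1, LPS and LPS/IFNγ libraries than in frHMGB1, and *Cd68* and *Scarb2* are nearly level.

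*Olr1*, which encodes LOX-1, differed between conditions by the largest factor of the 8 and was highest after LPS/IFNγ. Its normalized counts were 11, 12.6 and 2.34 in PBS (17, 20 and 2 reads) and 23.5, 29.6 and 14 after frHMGB1. After dsHMGB1 they were 1621, 1821 and 1697, after LPS 3458, 3494 and 3325, and after LPS/IFNγ 14542, 16031 and 15662. The 3 libraries of dsHMGB1, of LPS and of LPS/IFNγ lay together, while those of PBS were spread 5.38-fold and those of frHMGB1 2.11-fold. No neighbouring conditions in the order LPS/IFNγ, LPS, dsHMGB1, frHMGB1, PBS overlapped. The lowest frHMGB1 library (14, from 13 reads) lay just above the highest PBS library (12.6, from 20 reads). The PBS level rests on 39 reads in 3 libraries, 2 of them in the library that stood apart, so folds over PBS are imprecise at their base.

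Over PBS, *Olr1* was 176-fold higher after dsHMGB1 (log2 fold change 7.46, SE 0.25), 352-fold higher after LPS (8.46, SE 0.25) and 1580-fold higher after LPS/IFNγ (10.63, SE 0.25). Without the third PBS library these values were 7.18, 8.17 and 10.34 on the log2 scale. For frHMGB1 the value was 1.21 (SE 0.31), and 0.93 without that library. Among the stimulations, dsHMGB1 gave a 2.00-fold lower level than LPS (SE 0.09 on the log2 scale) and an 8.99-fold lower level than LPS/IFNγ (-3.17, SE 0.09), and LPS/IFNγ exceeded LPS 4.50-fold (2.17, SE 0.09). From LPS to LPS/IFNγ *Marco* was thus lower and *Olr1* higher, and dsHMGB1 lay above LPS for the first and below it for the second.

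Endothelial markers were also highest in LPS/IFNγ, and endothelial cells are known to express *Olr1*. Their summed level was 11.6 to 30.4 CPM in PBS, 63.5 to 80.6 after dsHMGB1, 62.3 to 66.8 after LPS and 99.0 to 104 after LPS/IFNγ. Nearly all of it was *Kdr*, at 97.9 to 103 CPM in LPS/IFNγ, while the 4 other endothelial markers *Cdh5*, *Tie1*, *Tek* and *Emcn* did not exceed 1.13 CPM in any library. Dendritic cell markers summed to 1.73 to 2.77 CPM in PBS and 13.1 to 14.2 CPM in LPS/IFNγ, from *Zbtb46* and *Xcr1*, with *Flt3* at or near 0. Their part in the level of *Olr1* was not tested.

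*Msr1*, which encodes the macrophage scavenger receptor SR-A that takes up acetylated and oxidized LDL, rose after dsHMGB1, LPS and LPS/IFNγ, and most after LPS. Its normalized counts were 4517, 4790 and 4422 in PBS, 5558, 5982 and 5550 after frHMGB1, and 38878, 43769 and 41569 after dsHMGB1. They were 70028, 68701 and 69957 after LPS and 23908, 22480 and 23224 after LPS/IFNγ. No library of any condition overlapped with another condition, so the order was LPS, dsHMGB1, LPS/IFNγ, frHMGB1 and PBS.

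In edgeR's quasi-likelihood test with Benjamini-Hochberg adjustment over 16919 genes, *Msr1* was 9.04-fold higher after dsHMGB1 than after PBS (log2 fold change 3.18, SE 0.06, adjusted p = 8.88e-12). After LPS the rise was 15.2-fold (3.93, adjusted p = 1.07e-12) and after LPS/IFNγ 5.07-fold (2.34, adjusted p = 5.49e-11). *Msr1* was lower in dsHMGB1 than in LPS by 0.75 on the log2 scale (95% interval of the log2 fold change -0.87 to -0.63, edgeR adjusted p = 4.39e-05) and 1.78-fold higher than in LPS/IFNγ (0.84, 0.71 to 0.96, edgeR adjusted p = 3.5e-06). LPS/IFNγ gave a 3.00-fold lower level than LPS (-1.58, edgeR adjusted p = 3.4e-08). For frHMGB1 against PBS the log2 fold change was 0.32 (SE 0.06, edgeR adjusted p = 0.0257), but the call was lost with no filter on low counts (adjusted p = 0.288), with only the libraries of the 2 conditions in the fit (0.522), with only protein-coding genes (0.232), with library totals as the scale (0.0799) and without the first PBS library (0.0542) or any 1 of the frHMGB1 libraries (0.0636 to 0.135).

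*Scarb1*, which encodes the HDL receptor SR-BI, was lower after dsHMGB1, LPS and LPS/IFNγ. Normalized counts were 6322, 6005 and 4397 in PBS, 7290, 7331 and 6810 after frHMGB1 and 3093, 3012 and 3282 after dsHMGB1. After LPS they were 2114, 1949 and 2010, and after LPS/IFNγ 1947, 2014 and 2098. The ranges of LPS and LPS/IFNγ overlapped and all other neighbours in the order were apart, with the third PBS library the lowest of its condition but still above every dsHMGB1 library.

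The fall of *Scarb1* against PBS was 1.78-fold after dsHMGB1 (log2 fold change -0.83, SE 0.12, edgeR adjusted p = 0.000149), 2.76-fold after LPS (-1.46, SE 0.13, edgeR adjusted p = 3.92e-07) and 2.76-fold after LPS/IFNγ (-1.47, SE 0.13, edgeR adjusted p = 4.53e-07). Without the third PBS library the log2 fold changes of *Scarb1* were -0.98, -1.61 and -1.62. The level in dsHMGB1 was 1.55-fold higher than in LPS (0.63, edgeR adjusted p = 0.00198) and than in LPS/IFNγ (0.63, edgeR adjusted p = 0.00196). Between LPS/IFNγ and LPS the log2 difference was 0.00, with a 95% interval of -0.25 to 0.25. After frHMGB1 the value was 0.36 (SE 0.12, edgeR adjusted p = 0.148), which did not pass, although DESeq2's Wald test gave an adjusted p of 0.0405 and edgeR without the third PBS library 0.0328 at a log2 fold change of 0.22.

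*Colec12* (ENSMUSG00000036103, chr18:9707595-9882644), a collectin-like class A receptor that binds sugars and oxidized LDL, was lower after dsHMGB1, LPS and LPS/IFNγ than after frHMGB1 or PBS, at levels whose ranges overlapped. Normalized counts were 7686, 8277 and 3942 in PBS, 7523, 7310 and 7238 after frHMGB1, 3346, 3837 and 3811 after dsHMGB1, 3723, 3992 and 3698 after LPS and 3750, 4048 and 3964 after LPS/IFNγ. The third PBS library lay within the range of the stimulated libraries, so PBS overlapped with LPS and LPS/IFNγ, and the frHMGB1 libraries lay above all of the other 3 stimulations.

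Against PBS the log2 fold changes of *Colec12* were -0.86 after dsHMGB1 (SE 0.21, edgeR adjusted p = 0.00429), -0.80 after LPS (SE 0.22, edgeR adjusted p = 0.00301) and -0.76 after LPS/IFNγ (SE 0.21, edgeR adjusted p = 0.00564). Without the third PBS library they were -1.13, -1.08 and -1.04, with adjusted p-values of 5.13e-11, 5.25e-11 and 6.77e-11, and with only the libraries of the 2 conditions in the fit the calls were lost (adjusted p = 0.0783, 0.0726 and 0.0828). Against frHMGB1, which does not involve that library, dsHMGB1 was 2.01-fold lower (-1.01, SE 0.21, edgeR adjusted p = 0.00133). The intervals of the log2 difference were -0.48 to 0.37 for dsHMGB1 against LPS, -0.52 to 0.32 for dsHMGB1 against LPS/IFNγ and -0.38 to 0.47 for LPS/IFNγ against LPS. Fibroblast markers, from a cell type that also expresses *Colec12*, summed to 120 CPM in the third PBS library and to 213 to 284 CPM in the other 14, and their part in its level was not tested.

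*Scara3*, a class A member described as a guard against oxidative stress, had few reads, from 14 to 113 in a library. Its mean normalized count was 43.7 ± 27.4 (SD, n = 3) in PBS, 76.2 ± 15 after frHMGB1, 46.2 ± 10.1 after dsHMGB1, 66.4 ± 9.09 after LPS and 54.9 ± 26.1 after LPS/IFNγ. All neighbouring conditions overlapped, and with all 15 libraries in the fit *Scara3* passed edgeR's test in none of the 8 comparisons (smallest unadjusted p = 0.109), nor did it pass DESeq2's Wald test. With only the libraries of the 2 conditions in the fit, edgeR called it lower in dsHMGB1 than in frHMGB1 (-0.70, adjusted p = 0.0238). The 95% interval against PBS ran from -0.83 to 0.95 for dsHMGB1, and the sign of the difference turned without the third PBS library (0.06 to -0.31).

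*Cd68*, whose lysosomal product macrosialin is a standard macrophage marker, differed little between conditions under size-factor scaling. Mean normalized counts were 76138 ± 9650 (SD, n = 3) in PBS, 85322 ± 977 after frHMGB1, 73821 ± 3270 after dsHMGB1, 82765 ± 2650 after LPS and 79498 ± 2610 after LPS/IFNγ. The highest mean was 1.16 times the lowest and all neighbouring ranges overlapped. With all 15 libraries in the fit and TMM normalization, edgeR called no comparison. The smallest unadjusted p was 0.0432, for dsHMGB1 against frHMGB1 (log2 fold change -0.21, edgeR adjusted p = 0.0783), where DESeq2's Wald test gave an adjusted p of 0.0401. For the same comparison edgeR called *Cd68* lower with only the libraries of the 2 conditions in the fit (-0.19, adjusted p = 0.00584) and with library totals as the scale (-0.61, adjusted p = 0.00192). Without the third PBS library *Cd68* was called lower than PBS after dsHMGB1 (-0.15, edgeR adjusted p = 0.00616). With all libraries the 95% interval of the log2 fold change against PBS was -0.22 to 0.13 for dsHMGB1, -0.06 to 0.30 for LPS and -0.12 to 0.24 for LPS/IFNγ.

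*Scarb2*, the lysosomal receptor that carries glucocerebrosidase to the lysosome, ran from 9280 ± 268 after frHMGB1 and 9943 ± 156 after LPS/IFNγ to 10090 ± 81.8 in PBS, 11057 ± 183 after dsHMGB1 and 11358 ± 352 after LPS. Its dsHMGB1 libraries exceeded those of frHMGB1 by 0.25 on the log2 scale (SE 0.04, edgeR adjusted p = 0.0162). That call was lost without the second or the third frHMGB1 library or the second dsHMGB1 library (edgeR adjusted p of 0.0536 to 0.0662), and the direction turned to -0.15 when counts were scaled to library totals. DESeq2's Wald test also called *Scarb2* higher than PBS after dsHMGB1 (0.13, adjusted p = 0.00264) and LPS (0.17, adjusted p = 6.44e-05) and lower after frHMGB1 (-0.12, adjusted p = 0.0309). It further called *Scarb2* higher in dsHMGB1 than in LPS/IFNγ (0.15, adjusted p = 0.000622) and lower in LPS/IFNγ than in LPS (-0.19, adjusted p = 2.07e-05), as did edgeR with only the libraries of the 2 conditions (adjusted p = 0.0298 and 0.000168). With RLE normalization in place of TMM, edgeR also called *Scarb2* higher than PBS after LPS (0.17, adjusted p = 0.0411).

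The near-level pattern of *Cd68* and *Scarb2* depends on the scaling. Scaling counts to library totals in place of size factors moved the log2 fold change of all genes by -0.354 in dsHMGB1 against PBS, -0.688 in LPS against PBS and -0.677 in LPS/IFNγ against PBS. On that scale *Cd68* was lower than PBS by 0.42, 0.59 and 0.64 (edgeR adjusted p = 0.0194, 0.00175 and 0.00103 after dsHMGB1, LPS and LPS/IFNγ), and *Scarb2* had log2 fold changes of -0.23, -0.53 and -0.71 (edgeR adjusted p = 0.0498, 0.000202 and 1.44e-05). For *Marco*, *Olr1*, *Msr1*, *Scarb1* and *Colec12* the directions against PBS after these 3 stimulations were the same on both scales.

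**Figure D2:**
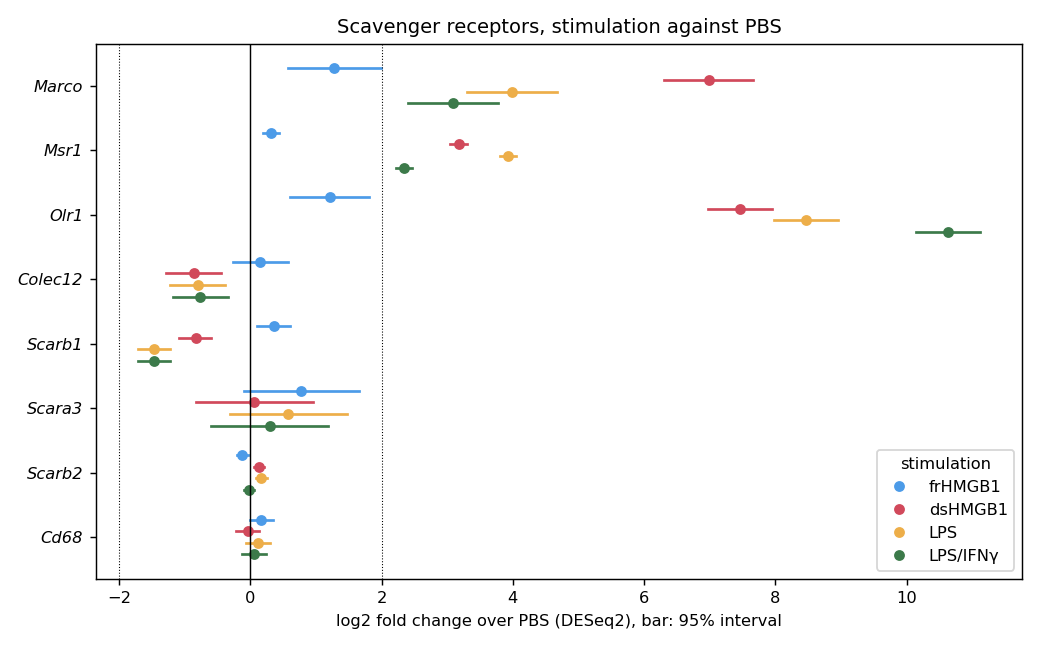
Log2 fold changes over PBS for each receptor and stimulation, with points for the DESeq2 estimate from 3 libraries per condition and bars for the 95% interval. Dotted lines mark 2 and -2 on the log2 scale. *Marco*, *Olr1* and *Msr1* pass 2 after dsHMGB1, LPS and LPS/IFNγ, *Colec12* and *Scarb1* lie between -2 and 0 in these conditions, and the frHMGB1 points lie between -0.12 and 1.28.

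Counted over the 6 tested receptors, dsHMGB1 against PBS gave 1 called higher (*Msr1*) and 2 called lower (*Scarb1* and *Colec12*), where 23.3% of all 16919 genes were called higher and 24.2% lower. The same 3 genes were called in the same directions after LPS (26.7% and 36.2% of all genes) and after LPS/IFNγ (29% and 31.2%). The comparisons share the PBS libraries. After frHMGB1 *Msr1* was called higher, where 1.31% of genes were called higher and 5.69% lower. dsHMGB1 against frHMGB1 gave 2 higher (*Msr1* and *Scarb2*) and 2 lower (*Scarb1* and *Colec12*), against 27.7% and 23.1% of all genes. For all 8 receptors, the untested *Marco* and *Olr1* included, the median log2 fold change was 0.10 after dsHMGB1, 0.38 after LPS and 0.18 after LPS/IFNγ. These medians thus contain the 2 genes chosen for their peaks. For all genes tested the medians were -0.10, -0.21 and -0.12.

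Among dsHMGB1, LPS and LPS/IFNγ, the comparison of dsHMGB1 with LPS had *Scarb1* called higher and *Msr1* lower among the 6 tested, with 15.8% and 10.6% of all genes called. dsHMGB1 against LPS/IFNγ had *Msr1* and *Scarb1* called higher (16.5% of all genes higher, 16.7% lower), and LPS/IFNγ against LPS had *Msr1* called lower (16.3% higher, 9.36% lower). By the fold rule of the study, a log2 fold change above 2 or below -2 without a test, *Marco*, *Msr1* and *Olr1* passed 2 after dsHMGB1, LPS and LPS/IFNγ, where 8.43%, 10.9% and 12.1% of genes did, and none of the 8 passed in frHMGB1, where 0.609% of genes did. None of the 8 lay below -2 against PBS, where 6.83% of genes did after frHMGB1, 4.76% after dsHMGB1, 14% after LPS and 9.69% after LPS/IFNγ. dsHMGB1 against frHMGB1 passed 2 for *Marco*, *Olr1* and *Msr1* (13.7% of genes), and none of the 8 passed -2 (4.21%). dsHMGB1 against LPS passed 2 for *Marco* (6.86% of genes) and -2 for none (1.51%), and dsHMGB1 against LPS/IFNγ passed 2 for *Marco* (2.58%) and -2 for *Olr1* (3.81%). LPS/IFNγ against LPS passed 2 for *Olr1* (7.6%) and -2 for none (1.5%).

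To compare levels between genes, counts were divided by exon length and scaled to the same total in every library (TPM). *Cd68* dominated: it made up 81.8% to 94.3% of the summed TPM of the 8 genes as condition means, and stood at 4060 ± 1520 TPM (SD, n = 3) in PBS and 3190 ± 207 TPM after dsHMGB1. *Scarb2* followed in PBS, at 105 ± 28.9 TPM. Among the 6 receptors other than these lysosomal proteins, the ones that made up the total changed with the stimulation, as the plot of shares by library shows. In PBS, *Colec12* gave 34.3% ± 6.5 (SD, n = 3) of their summed TPM, *Msr1* 34.1% ± 6.3 and *Scarb1* 30.3% ± 1.3, and after frHMGB1 they gave 31.9%, 34.0% and 31.8%. The third PBS library stood apart here too, with 26.8% from *Colec12* and 41.3% from *Msr1*, against 37.3% and 38.8% from *Colec12* and 30.1% and 30.9% from *Msr1* in the other PBS libraries.

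After dsHMGB1 *Msr1* gave 68.2% ± 0.68 (SD, n = 3) and *Marco* 18.5% ± 0.48, where *Marco* gave 0.68% in PBS and at most 1.98% in any library of the LPS conditions. After LPS *Msr1* alone gave 85.4% ± 0.45 and *Olr1* 7.47% ± 0.22. After LPS/IFNγ *Olr1* gave 49.0% ± 1.8 and *Msr1* 41.6% ± 1.9. *Colec12* and *Scarb1*, the larger part of the PBS total, gave 4.38% and 3.85% after dsHMGB1, 3.40% and 1.85% after LPS, and 5.11% and 2.70% after LPS/IFNγ. The summed TPM of the 6 was 147 ± 63 (SD, n = 3) in PBS (178, 188 and, in the third library, 75) and 184 ± 6.3 after frHMGB1, against 521 ± 53 after dsHMGB1, 527 ± 7.6 after LPS and 398 ± 6.9 after LPS/IFNγ. The ranges of dsHMGB1 and LPS overlapped.

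**Figure D3:**
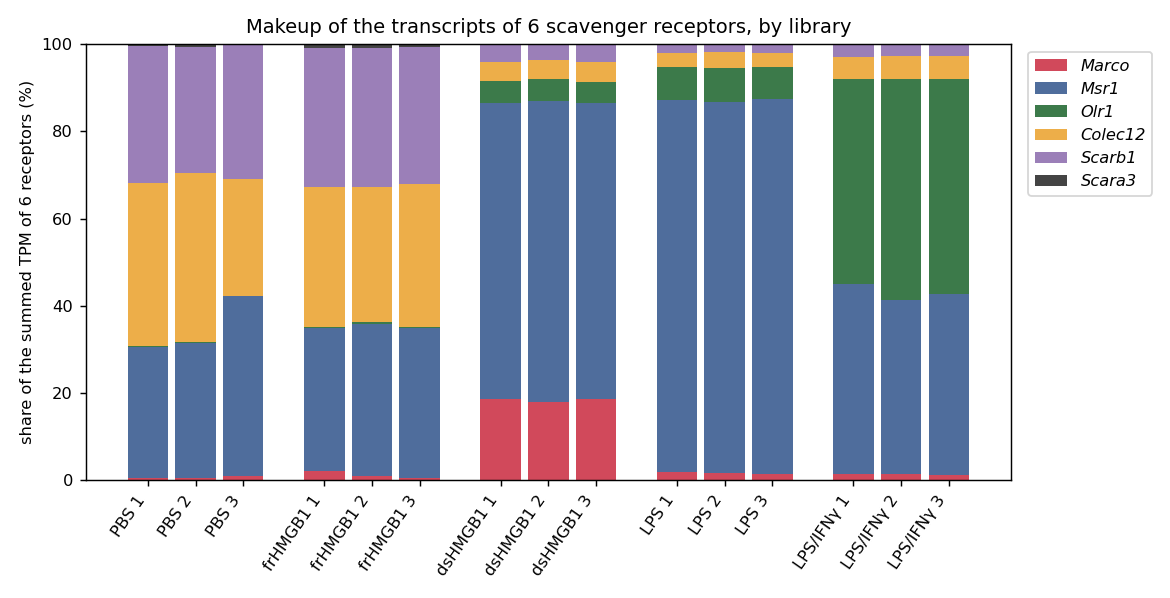
Shares of *Marco*, *Msr1*, *Olr1*, *Colec12*, *Scarb1* and *Scara3* in the summed TPM of these 6 receptors, in percent, as 1 stacked bar per library. *Marco* takes 17.9% to 18.7% in the dsHMGB1 libraries and *Olr1* 47.1% to 50.6% in the LPS/IFNγ libraries, while *Colec12* and *Scarb1* hold most of the PBS and frHMGB1 bars together with *Msr1*.

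The genes whose pattern over the 15 libraries was most like that of *Marco* were *Tmem120b* (Pearson's r = 0.97 on log2 of the normalized count plus 1), *Gm10134* (0.968), *Mafg* (0.965), *Zdhhc18* (0.958) and *Smpdl3b* (0.958), out of 10101 protein-coding genes whose mean normalized count was 100 or more. All 5 were highest after dsHMGB1, but by less: *Smpdl3b*, which encodes a lipid-modifying phosphodiesterase, had means of 90.9 ± 15.1 (SD, n = 3) in PBS, 1196 ± 19.2 after dsHMGB1, 676 ± 31.5 after LPS and 429 ± 31.1 after LPS/IFNγ. *Mafg*, a small Maf transcription factor, ran from 3967 ± 292 in PBS to 6645 ± 206 after dsHMGB1. For *Olr1* the 5 most alike were *Serpina3f* (0.998), *Cdk6* (0.997), *Ralgds* (0.997), *Pik3cd* (0.996) and *Prpf4* (0.996), all highest after LPS/IFNγ. *Serpina3f*, a serine protease inhibitor gene, went from 2.13 ± 1.97 in PBS to 1650 ± 111 after dsHMGB1, 4743 ± 287 after LPS and 21619 ± 455 after LPS/IFNγ, the order of *Olr1*. As these genes were picked by their correlation, the peak they share with *Marco* or *Olr1* follows from the choice. The libraries of a condition come from 1 pool of cells, so these coefficients describe 5 conditions and say nothing of shared control.

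Of 13 other scavenger receptors found in the table, 12 passed the filter on low counts. Against PBS, dsHMGB1 had 3 of them called higher and 3 lower, LPS 3 higher and 5 lower, and LPS/IFNγ 3 higher and 4 lower, by edgeR's quasi-likelihood test. Of all genes tested, 23.3% were called higher and 24.2% lower after dsHMGB1, 26.7% and 36.2% after LPS and 29% and 31.2% after LPS/IFNγ. The median log2 fold changes of the 12 were -0.25, -0.15 and -0.52, beside -0.10, -0.21 and -0.12 for all genes. Together with the 6 genes above, 4 receptors were called higher and 5 lower after dsHMGB1, 4 and 7 after LPS and 4 and 6 after LPS/IFNγ. With counts scaled to library totals these numbers were 4 and 9, 4 and 10, and 3 and 12. On that scale, of all 16919 genes, 2615 were called higher and 6689 lower after dsHMGB1. For all genes the numbers were 2653 and 9458 after LPS, and 2976 and 8782 after LPS/IFNγ. *Cd44*, the hyaluronan receptor, and *Cxcl16*, which encodes a membrane-bound chemokine that also binds oxidized LDL, rose in all 3, by 2.19 (SE 0.14) and 1.88 (SE 0.27) on the log2 scale after dsHMGB1. *Stab2*, *Cd163* (the receptor for haptoglobin-bound haemoglobin) and *Lrp1*, a large endocytic receptor, fell in all 3, by 1.22 (SE 0.19), 1.60 (SE 0.36) and 0.62 (SE 0.24) after dsHMGB1. *Cd163* had few reads, 172 over the PBS libraries, 50 after dsHMGB1, 36 after LPS and 42 after LPS/IFNγ. The third PBS library stood apart for *Lrp1*, at 45173 normalized counts against 90262 and 95498 in the other PBS libraries, and for *Cxcl16*, at 19707 against 8524 and 8259. *Cd36*, the class B receptor for oxidized LDL and fatty acids, had a log2 fold change of 0.16 (95% interval -0.37 to 0.69) after dsHMGB1 and was not called in any comparison. Its PBS libraries ran from 13623 to 37315 normalized counts, with the third library lowest, beside a mean of 31363 after dsHMGB1. The sign of this small difference is therefore uncertain.

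None of the 12 others lay more than 2 on the log2 scale higher in dsHMGB1 than in LPS, where 6.86% of genes did. *Marco* did, but was chosen for that peak. In dsHMGB1 against LPS *Lrp1* was called higher (0.74, SE 0.24, edgeR adjusted p = 0.0259) and *Cd44* lower (-1.28, SE 0.14, edgeR adjusted p = 5.26e-05). *Scarf1* was 0.88 higher in dsHMGB1 than in LPS/IFNγ on the log2 scale (SE 0.16, edgeR adjusted p = 0.000123). *Mrc1*, the mannose receptor, was called higher than PBS after LPS/IFNγ (1.21, SE 0.22, edgeR adjusted p = 0.000509), with log2 fold changes of 0.36 after dsHMGB1 and 0.50 after LPS (edgeR adjusted p = 0.233 and 0.117). It was lower in dsHMGB1 than in LPS/IFNγ (-0.85, edgeR adjusted p = 0.0106). Its PBS libraries ran from 2984 to 6443 normalized counts, with the third library lowest. The size of its rise depends on the scaling, since library totals move every gene by -0.677 in LPS/IFNγ against PBS. In TPM, *Mrc1* had means of 55.9 ± 30.7 (SD, n = 3, range 20.8 to 77.8) in PBS and 83.5 ± 3.28 after LPS/IFNγ. *Mrc1* was the 1 scavenger receptor called higher in LPS/IFNγ than in LPS (0.71, edgeR adjusted p = 0.0245), and with any 1 of the 6 libraries left out 0 were. After frHMGB1 edgeR called *Msr1* as the only 1 of the 18 tested scavenger receptors, where 2 had an unadjusted p under 0.05 (*Msr1* and *Scarb1*, both higher) and DESeq2's Wald test called 2 higher and 1 lower.

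**Figure D4:**
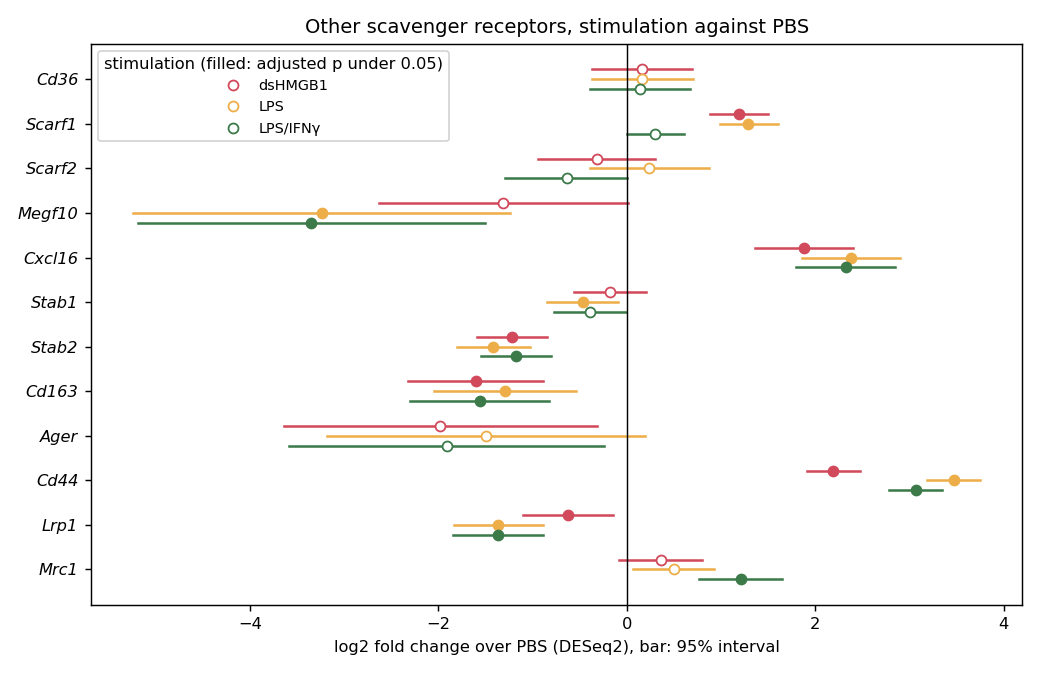
Log2 fold changes over PBS of the 12 other scavenger receptors past the filter, for dsHMGB1, LPS and LPS/IFNγ, with bars for the 95% interval of DESeq2 from 3 libraries per condition. Filled points had an edgeR adjusted p under 0.05 and open points did not. *Cd44* and *Cxcl16* lie to the right of 0 and *Stab2*, *Cd163* and *Lrp1* to the left in all 3 stimulations. *Cd36* lies at 0.14 to 0.16, over PBS libraries of 13623 to 37315 normalized counts.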

How the data were processed

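Per the labels and the study's methods, the authors prepared stranded mRNA libraries from RNA of 15 BMDM cultures (5 conditions, 3 each, technical replicates of cells pooled from 5 mice), read both ends on a NextSeq 2000, demultiplexed with CASAVA, aligned to GRCm38 with STAR and used DESeq2. The culture with M-CSF lasted 10 days in the labels and 8 to 9 days in the methods. The deposited table holds raw read counts per Ensembl gene, not normalized. For the counting program, its annotation and its strand setting, the value is "not given in the sources used here". Samples were grouped by the labels, and 0 columns were without a sample.

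Of 51763 identifiers, 51661 were found in GENCODE M21, which gave symbols, positions and exon lengths. Of 92 genes on the lists, 91 were found. The genes and lists were chosen with earlier results of these data known. Genes named are the 8 receptors, the lists of other scavenger receptors, lysosomal, lipoprotein, transcription factor and cell type marker genes, and the 5 genes most correlated with *Marco* and with *Olr1*. The values of 1 listed gene are not reported here.

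Genes past edgeR's filterByExpr (minimum count 10, minimum total 15) numbered 16919, 13025 of them protein-coding, and included all 8 receptors. Tests were edgeR 4.0.16 quasi-likelihood F tests in R 4.3.3 with TMM normalization, all 15 libraries in 1 fit, no covariates and Benjamini-Hochberg adjustment over all genes, called at an adjusted p under 0.05. Normalized counts, unshrunken log2 fold changes, SEs and 95% intervals came from DESeq2 1.42.0. There were 8 comparisons: 4 of a stimulation against PBS, 3 of dsHMGB1 against frHMGB1, LPS or LPS/IFNγ, and 1 of LPS/IFNγ against LPS. TPM used the summed exon length of each gene. The fitting steps were tested on simulated data. Replicates were not copies of 1 library (chi-square per degree of freedom 4.31 to 763). Settings varied in turn were the filter (none, or 1 CPM in 3 libraries), the test (DESeq2's Wald test), the normalization (RLE), fits of the 2 conditions alone, protein-coding genes only, a replicate block, each library left out and, chosen after seeing the data, library totals in place of size factors.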

Additional observations from a re-analysis of the deposited data

How the results depend on the processing

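The log2 fold changes of *Marco* and *Olr1* kept their sign in every comparison under every alternative. Against the condition of its peak, this follows from how each was chosen. Library totals moved *Marco* from 3.99 to 3.29 in LPS against PBS and from 2.99 to 3.32 in dsHMGB1 against LPS. For *Olr1* they moved dsHMGB1 against LPS from -1 to -0.67. The signs of *Msr1* and *Scarb1* were also kept, except that the difference of *Scarb1* between LPS/IFNγ and LPS was 0.00. No paired design follows from the replicate numbers: same-numbered libraries of different conditions had correlations of their deviations between -0.386 and 0.375 over 30 pairs. With the number as a replicate block, 3856 genes were called higher and 3755 lower in dsHMGB1 against PBS (3936 and 4092 without it), no call of the 6 tested genes among the 8 receptors changed, and of the 18 scavenger receptors 5 in place of 7 were called lower in dsHMGB1 against frHMGB1. No count of calls moved by more than 1.5 times. The libraries share only a number. Depth limits *Scara3*, *Cd163* and the PBS levels of *Marco* and *Olr1*, which rest on few reads. The causes of the changes below were not tested.

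Counts for frHMGB1 against PBS were the least stable. In place of 222 higher and 963 lower, DESeq2's Wald test called 502 higher, no filter left 96 higher, the 1 CPM filter 547 lower, the fit of the 2 conditions alone 7 higher and 182 lower, and protein-coding genes only 41 higher and 29 lower. Of the 18 tested scavenger receptors, in place of 1 called higher, DESeq2 called 2 higher and 1 lower, and no filter, the fit of the 2 conditions, protein-coding genes only and library totals gave 0. Leaving out 1 library gave 114 to 1459 genes higher, 704 to 1576 lower and 0 to 3 scavenger receptors higher, with the highest values without the third PBS library.

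With only the 2 conditions in the fit, dsHMGB1 against PBS had 2493 genes higher and 2254 lower and 3 scavenger receptors lower in place of 5, and LPS against PBS had 3685 genes and 3 receptors lower in place of 6121 and 7. dsHMGB1 against frHMGB1 had 11 receptors lower in place of 7, dsHMGB1 against LPS 3224 genes lower in place of 1791, dsHMGB1 against LPS/IFNγ 4296 higher and 4284 lower in place of 2797 and 2824, and LPS/IFNγ against LPS 4564 higher, 4435 lower and 5 receptors lower in place of 2765, 1583 and 2. DESeq2 also called 5 receptors lower in the last, and no filter left 4 lower in dsHMGB1 against frHMGB1. With 1 library left out, receptors called lower ranged from 4 to 8 in dsHMGB1 against PBS (8 without the third PBS library), from 6 to 9 in LPS/IFNγ against PBS (9 without that library), from 4 to 5 in dsHMGB1 against frHMGB1 and from 1 to 2 in dsHMGB1 against LPS/IFNγ, and those called higher from 1 to 2 in dsHMGB1 against LPS. Of all genes, 3253 to 5034 were called lower in dsHMGB1 against PBS and 4681 to 5965 in LPS/IFNγ against PBS. Both were highest without the third PBS library. The ranges were 3275 to 3333 lower in dsHMGB1 against frHMGB1 and 2268 to 2447 lower in dsHMGB1 against LPS/IFNγ. In dsHMGB1 against LPS, 1944 to 2178 genes were called higher. The 1 receptor called higher in LPS/IFNγ against LPS was lost with any 1 of the 6 libraries left out, which gave 0 each time.

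Library totals gave 2615 higher and 6689 lower in dsHMGB1 against PBS with 9 receptors lower, 2653 and 9458 in LPS against PBS, and 2976 and 8782 in LPS/IFNγ against PBS with 12 receptors lower. They gave 6340 lower in dsHMGB1 against frHMGB1, 4661 higher, 885 lower and 4 receptors higher in dsHMGB1 against LPS, and 4806 higher, 1663 lower and 1 receptor lower in dsHMGB1 against LPS/IFNγ, with 0 receptors higher in LPS/IFNγ against LPS. The log2 fold change against PBS turned for *Scarb2* to -0.23 after dsHMGB1 and -0.53 after LPS, for *Scara3* to -0.36, -0.17 and -0.43 after dsHMGB1, LPS and LPS/IFNγ, and for *Cd68* to -0.59 after LPS and -0.64 after LPS/IFNγ. Among the other comparisons it turned for *Scarb2* to -0.15 in dsHMGB1 against frHMGB1 and 0.30 against LPS, for *Colec12* to 0.28 and 0.23, and for *Cd68* to 0.17 and 0.22, in dsHMGB1 against LPS and LPS/IFNγ, and for *Scara3* to 0.07 against LPS/IFNγ.

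With protein-coding genes only, *Scarb2* turned to 0.01 in dsHMGB1 against LPS and *Cd68* to 0.02 in LPS/IFNγ against LPS. Over the libraries left out, *Cd68* ranged from -0.15 to 0.03 in dsHMGB1 against PBS and from -0.05 to 0.14 in LPS/IFNγ against PBS, *Colec12* from -0.12 to 0.35 in frHMGB1 against PBS and from -0.09 to 0.01 in dsHMGB1 against LPS. *Scara3* ranged from -0.31 to 0.59 in dsHMGB1 against PBS, from -0.08 to 0.83 in LPS/IFNγ against PBS, from -0.56 to 0.14 in dsHMGB1 against LPS/IFNγ and from -0.66 to 0.04 in LPS/IFNγ against LPS. None of these values was called by edgeR with all libraries and TMM except that of *Scarb2* in dsHMGB1 against frHMGB1.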

Other observations

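Genes of lipoprotein uptake and cholesterol efflux, which handle what scavenger receptors bring in, were called in both directions. Of 9 tested, dsHMGB1 against PBS had 4 called higher and 1 lower by edgeR's quasi-likelihood test with Benjamini-Hochberg adjustment, LPS 2 and 3, and LPS/IFNγ 2 and 4, with median log2 fold changes of 0.54, -0.04 and 0.02. Of all genes tested, 23.3% were called higher and 24.2% lower after dsHMGB1, 26.7% and 36.2% after LPS and 29% and 31.2% after LPS/IFNγ, with medians of -0.10, -0.21 and -0.12. *Nr1h3*, which encodes the oxysterol receptor LXRα, differed between the stimulations. Its mean normalized count was 3361 ± 849 (SD, n = 3) in PBS, 7808 ± 488 after dsHMGB1, 3264 ± 146 after LPS and 1248 ± 53.5 after LPS/IFNγ, so it rose after dsHMGB1 (log2 fold change 1.22, SE 0.15, edgeR adjusted p = 2.42e-06) and fell after LPS/IFNγ (-1.43, SE 0.15, edgeR adjusted p = 2.65e-07). dsHMGB1 exceeded LPS by 1.26 (edgeR adjusted p = 6.01e-06) and LPS/IFNγ by 2.65 (edgeR adjusted p = 5.05e-09). *Abca1*, the efflux pump controlled by LXR, was called higher than PBS after dsHMGB1 (1.80, SE 0.49, edgeR adjusted p = 0.0124). Its PBS libraries held 9069, 10719 and, in the third, 1389 normalized counts. The study's own quantitative PCR differed from its sequencing here. It found *Abca1* lower after dsHMGB1, and *Nr1h3* higher than after frHMGB1 by a rather small fold. *Plin2*, a lipid droplet coat protein, fell by 1.57, 0.89 and 1.45 after dsHMGB1, LPS and LPS/IFNγ.

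Of 9 tested lysosomal genes, 1 was called higher and 1 lower after dsHMGB1, 1 and 3 after LPS, and 2 and 1 after LPS/IFNγ, beside the shares of all genes given above. *Lamp2*, a lysosomal membrane protein gene, was called higher in each of the 3, by 0.52, 0.73 and 0.92, and *Lipa*, the lysosomal acid lipase, fell after LPS (-0.81, edgeR adjusted p = 0.00126) and LPS/IFNγ (-0.73, edgeR adjusted p = 0.00336). The third PBS library had 17069 normalized counts of *Lamp2* and 64568 of *Lipa*, below the other PBS libraries at 26694 and 27848 and at 116929 and 120370. The rise of *Lamp2* also depends on the scaling, since library totals move every gene by -0.354, -0.688 and -0.677 in these comparisons. In TPM, *Lamp2* had means of 171 ± 79.9 (SD, n = 3, range 79.4 to 224) in PBS, 195 ± 24.5 after dsHMGB1, 170 ± 8.83 after LPS and 214 ± 2.4 after LPS/IFNγ. Of 10 transcription factors, 7 were called higher and 2 lower after dsHMGB1, 7 and 3 after LPS and 5 and 3 after LPS/IFNγ, where 23.3%, 26.7% and 29% of all genes were called higher and 24.2%, 36.2% and 31.2% lower. *Nfe2l2*, which encodes NRF2, stood higher in dsHMGB1 than in LPS by 0.45 (SE 0.15, edgeR adjusted p = 0.0322) and than in LPS/IFNγ by 1.34 (SE 0.15, edgeR adjusted p = 2.01e-05). *Spi1*, which encodes PU.1, rose by 1.27, 1.26 and 1.22 after dsHMGB1, LPS and LPS/IFNγ. *Rela* and *Nfkb1*, subunits of NF-κB, rose by 1.93 and 3.58 after dsHMGB1 and were lower in dsHMGB1 than in LPS/IFNγ (-0.31 and -0.75, edgeR adjusted p = 0.0143 and 0.0227).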
